A study of Drosophila melanogaster with 3 samples.

Results

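The 10 genes described here are the maternal, gap and head gap genes bicoid (bcd), caudal (cad), hunchback (hb), Krüppel (Kr), knirps (kni), giant (gt), tailless (tll), huckebein (hkb), empty spiracles (ems) and buttonhead (btd) of Drosophila melanogaster, 10 of 18164 annotated genes. They were listed by name for their place in anterior-posterior patterning, by a rule that uses no measured value, although earlier results of these data were known when the list was made. Each was searched for peaks by the summit, the base that the list marks as the position of the peak. Summits within 500 bp of a transcription start site (TSS) of the gene were called promoter summits. Other summits in the gene body or within 10 kb of it that were not within 500 bp of any TSS were called distal summits.

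The data are peak lists from chromatin immunoprecipitation followed by sequencing, which recovers a protein together with the DNA bound to it. The samples were whole embryos aged 0 to 24 hours from a transgenic strain with an eGFP-tagged copy of the CG17361 protein, precipitated with an antibody to GFP. There were 3 biological replicates of this 1 group and no second genotype or treatment, so the study held no comparison between groups. Whole embryos of this age span pool all cell types and all stages from the egg to the end of embryogenesis, so a peak cannot be assigned to the early stages in which most of these genes pattern the embryo. Whether the replicates came from separate embryo collections is not stated in the labels, so the spread between them may be technical.

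In the fly embryo, maternal messenger RNAs placed at the poles give gradients of transcription factors, which set the first zygotic patterning genes in broad bands along the axis. The gap genes repress one another and pass the pattern on to the pair-rule genes. Many of these genes are read from separate enhancers that lie upstream, downstream and in introns, several kilobases from the promoter, so both promoter and distal positions were examined.

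The main set was the list that the authors named conservative, which held 7804 peaks on 6 chromosome arms. In the thresholded list of each single replicate there were 5942 peaks for replicate 1, 3797 for replicate 2 and 5576 for replicate 3. Each thresholded list has a ranked counterpart that also holds weaker peaks, 44832 of them behind the main set. The threshold is an irreproducible discovery rate (IDR) of 0.01, a measure of how poorly the ranks of a peak match between a pair of lists. The signal of a peak is the authors' score, which is read only within a list because its scale is not given in the sources used here. Read counts were not analysed here, so the depth behind each list is unknown, and list length may follow depth.

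In the main set, peaks of the tagged protein at these genes lay mostly away from the promoter. A promoter summit was present at bcd alone, 1 of 10 genes, against 22.3% of all genes and 26.4% of protein-coding genes. Distal summits were present at bcd, cad, kni, ems and btd, 5 of 10 genes, against 34.8% of all genes and 35.0% of protein-coding genes. The other 5 genes, hb, Kr, gt, tll and hkb, had no main summit of either kind. The share of all genes with neither kind was not computed. Among protein-coding genes between 1632 and 12405 bp long, the range of the 10 genes, 31.5% had a promoter summit and 34.7% had a distal one. No test was made of these shares because the genes were chosen with results of these data known.

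The distal summits numbered 12, or 1.2 per gene over the 10 genes, against a mean of 0.741 over all genes. They include a pair of overlapping intervals at ems and another at btd, and each pair met the same peaks of replicates 1 and 3. Overlapping intervals were counted separately, here and over all genes. The median in the main set was 1 per patterning gene and 0 over all genes, and both were 0 in each replicate's list. In the replicates' own lists the means were 0.6, 0.1 and 0.6 per patterning gene for replicates 1, 2 and 3, against 0.523, 0.357 and 0.501 over all genes. In each of the lists that leave out replicate 1 or replicate 3, 4 distal summits were listed at the 10 genes. Those lists leave a replicate out of the IDR comparison only, since their peaks drew on all replicates' alignments. The higher mean of the patterning genes was thus small in replicates 1 and 3 and reversed in replicate 2. The replicate 1 mean includes a btd summit from a peak that the main set counts at the promoter of lncRNA:CR42657. Without that summit the replicate 1 mean would also lie below that of all genes. A further 5 main summits in the windows around these genes lay within 500 bp of the TSS of another gene. Those 5 are named below and were not counted for the patterning genes.

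**Figure D1:**
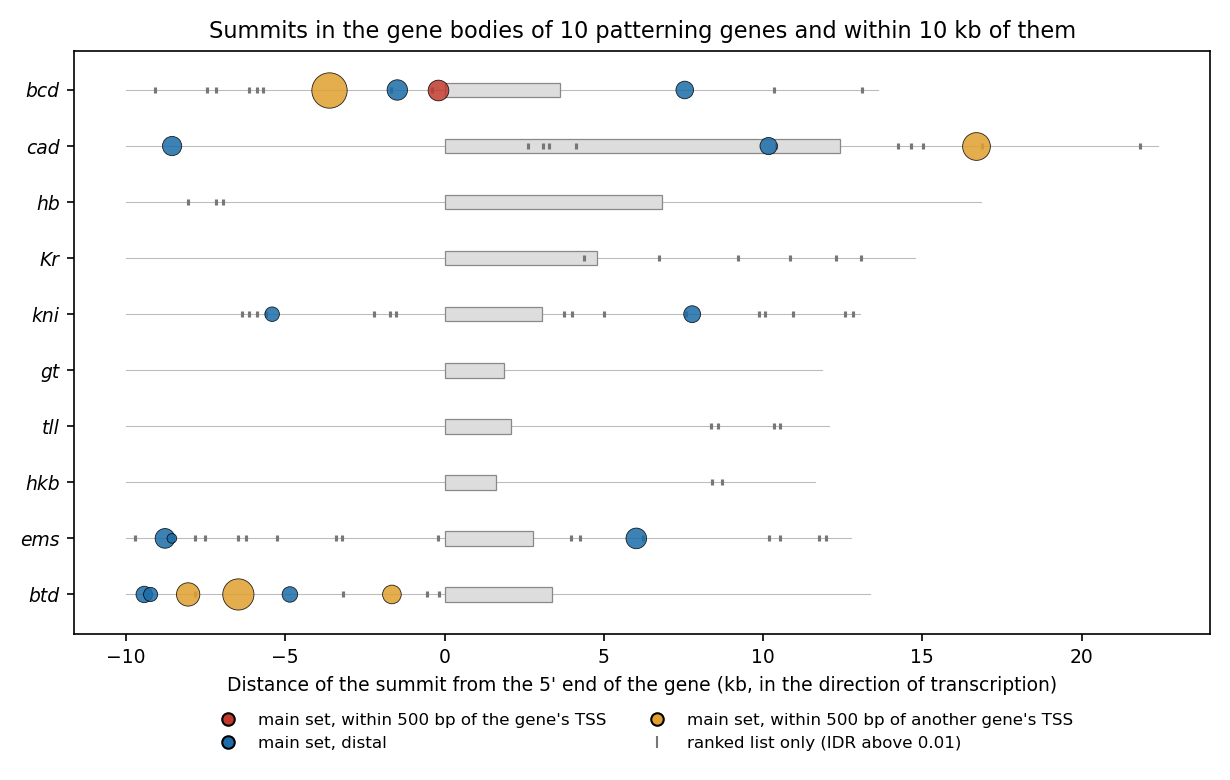
Positions of summits around the 10 genes, in kb from the 5' end of each gene in the direction of transcription, with gene bodies as grey boxes and the searched window as a thin line. Circles are main-set summits, with area growing with the authors' signal score, and ticks are summits of any class found in the ranked list only. Circles appear at bcd, cad, kni, ems and btd, and the hb, Kr, gt, tll and hkb windows hold ticks or nothing.

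Replicate lists gave fewer genes. In replicate 1 no patterning gene had a promoter summit, against 19.3% of all genes. In replicate 2, 1 of 10 had one, against 13.4%, and in replicate 3, 1 of 10, against 18.3%. In both cases the gene was bcd. Distal summits were listed at 4 of 10 genes in replicate 1, against 27.7% of all genes, at 1 of 10 in replicate 2, against 22.3%, and at 4 of 10 in replicate 3, against 27.4%. In replicate 1, btd is counted only for the peak at lncRNA:CR42657, which the main set does not count for btd. Over the replicates, 3 ± 1.73 of the 10 genes had a distal summit, and 25.8% ± 3.02 of all genes did (SD, n = 3). The share of the 10 genes lay above that of all genes in replicates 1 and 3 and below it in replicate 2, which has the shortest list, so the difference from all genes did not hold across replicates. In the lists that leave out replicate 1 or replicate 3, distal summits were listed at 2 of the 10 genes, bcd and ems, against 23.3% of all genes without replicate 1 and 27.1% without replicate 3. The bcd promoter summit was listed in both, as the only promoter summit of the 10 genes, against 13.5% of all genes without replicate 1 and 15.7% without replicate 3.

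**Figure D2:**
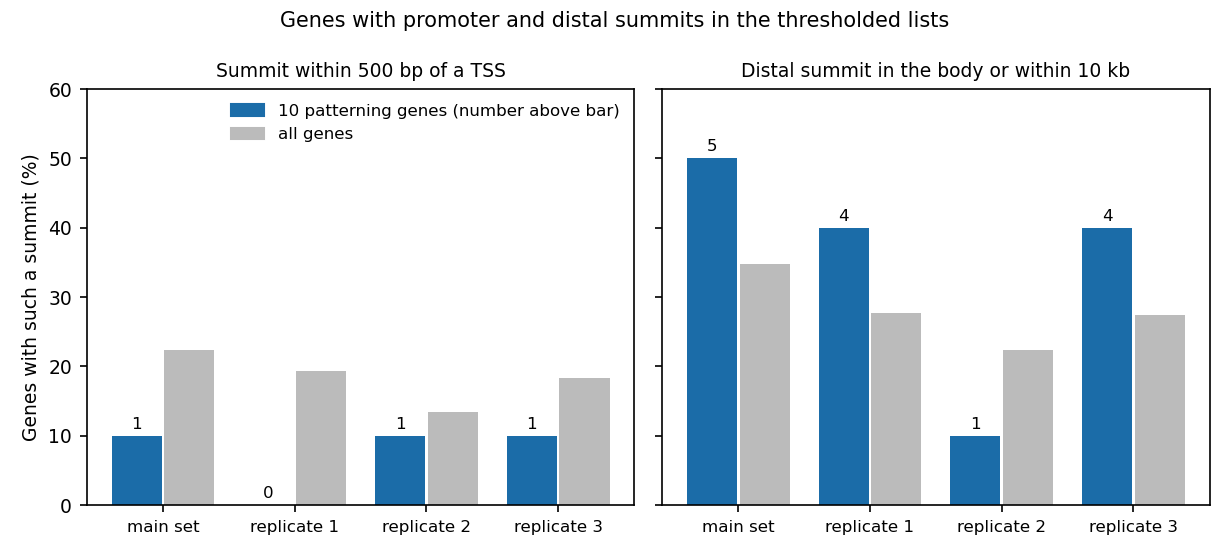
Percentage of genes with a promoter summit (left) or a distal summit (right) in the main set and in the thresholded list of each replicate, for the 10 patterning genes (blue, with the number of genes above the bar) and all 18164 genes (grey). The promoter bars of the patterning genes stand at 1, 0, 1 and 1 genes, below the grey bars in every list, and the distal bars stand above the grey bars in all lists except that of replicate 2.

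Among the maternal genes, bcd encodes the homeodomain protein that forms the anterior gradient of the early embryo. It lies on the minus strand at chr3R:6755842-6759466 (FBgn0000166, dm6) with 1 annotated TSS, and had 3 main peaks. The promoter peak, chr3R:6759537-6759809, had its summit at base 6759656, 190 bp upstream of the TSS. Its signal was 259.6, rank 2963 of 7804, with an IDR of 0.00311. In the replicates' ranked lists the signal at this place was 50.5, 102.1 and 113.9 for replicates 1, 2 and 3, which is 0.478, 1.18 and 1.04 times the median signal of that replicate's thresholded list, or 0.899 ± 0.372 (SD, n = 3). The peak passed the threshold in replicates 2 and 3, and not in replicate 1, where its IDR was 0.0281. The whole interval is shown as the sequence of the only promoter peak among the 10 genes, on the plus strand, with runs of 8 or more A or T bases in capitals:
bcd promoter: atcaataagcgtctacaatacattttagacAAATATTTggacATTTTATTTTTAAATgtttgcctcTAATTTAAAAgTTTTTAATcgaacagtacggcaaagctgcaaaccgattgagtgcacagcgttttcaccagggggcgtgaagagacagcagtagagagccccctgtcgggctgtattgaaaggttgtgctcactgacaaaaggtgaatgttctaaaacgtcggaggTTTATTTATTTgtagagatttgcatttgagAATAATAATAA
Its 6 A/T runs, the longest of 15 bases, stand at both ends of the interval, and GC content within 50 bp of the summit was 48.5%, against 38.6% in flanking windows centred 250 bp from the summit on each side.

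The second bcd peak, chr3R:6760643-6761252, had its summit 1482 bp upstream of the TSS in intergenic sequence and a signal of 252.2, rank 3087. The replicates gave 101.6, 46.0 and 112.9, and it passed the threshold in replicates 1 and 3. Within replicate 2 the promoter was thus the stronger of these sites, and within replicate 1 the upstream site was. At the upstream summit GC content was 23.8%, against 46.0% beside it. The 101 bases around the summit, chr3R:6760898-6760998, are shown for their contrast with the promoter peak, with A/T runs in capitals:
bcd upstream: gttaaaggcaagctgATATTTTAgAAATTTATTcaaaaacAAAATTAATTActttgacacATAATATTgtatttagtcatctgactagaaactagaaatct
The window holds 4 A/T runs, the longest of 11 bases.

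The third bcd peak, chr3R:6751619-6752228, lay 3918 bp beyond the 3' end of the gene, and the nearest TSS was that of zen, a homeobox gene of dorsal tissues, at 2270 bp. Its signal was 178.3, rank 4874, and the replicates gave 64.7, 36.2 and 61.2, none of them past the threshold. The strongest peak in the bcd window belonged to the promoter of Ama, which encodes an immunoglobulin-domain protein, 3623 bp upstream of the bcd TSS. That peak, chr3R:6762742-6763367, had a signal of 827.7, rank 153, and the replicates gave 328.1, 178.2 and 313.1, all past the threshold. All 3 replicates had a higher signal at Ama than at any bcd peak.

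Also maternal, cad encodes a homeodomain protein of the posterior embryo and is transcribed later in the posterior gut too. It lies on the plus strand at chr2L:20770731-20783135 (FBgn0000251) with 2 TSSs and is the longest of the 10 genes. Its stronger peak, chr2L:20761873-20762482, lay 8553 bp upstream, in an intron of dia, which encodes a formin, and 1878 bp from the TSS of dia. The signal was 219.8, rank 3760, with 89.9, 27.3 and 99.1 in the replicates, past the threshold in replicates 1 and 3. The only main summit inside any of the 10 gene bodies was in a cad intron, chr2L:20780600-20781209, 10011 bp downstream of the nearer cad TSS. It had a signal of 168.6, rank 5156, and 62.4, 36.3 and 63.6 in the replicates, none past the threshold. The TSS nearest to this summit was that of Pomp, at 6751 bp. The upstream site was the stronger of these cad sites in replicates 1 and 3, and the intronic site was in replicate 2. Replicate 3 also ranked a cad promoter summit 142 bp from a TSS, with a signal of 48.1 and an IDR of 0.045. It did not pass the threshold, and no other list held a cad promoter summit. In the same window the promoter of Pomp, which encodes a proteasome maturation factor, had a peak at chr2L:20787218-20787587 with a signal of 496.2, rank 829, past the threshold in every replicate.

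Among the trunk gap genes, only kni had main peaks. This gene encodes a nuclear receptor-like protein of the abdominal region and lies on the minus strand at chr3L:20692330-20695378 (FBgn0001320). The peak chr3L:20687298-20687907 lay 4727 bp beyond the 3' end of the gene, with a signal of 160.8, rank 5432, and 63.0, 25.7 and 52.1 in the replicates. The peak chr3L:20700485-20701094 lay 5412 bp upstream, with a signal of 110.0, rank 7038, no listed peak in replicate 1, and 32.3 and 55.8 in replicates 2 and 3. Neither passed the threshold in any replicate's own list. Thresholded kni summits appeared in the main set, with 2, and in the authors' pooled list, with 3, and in no other list. The TSS of kni was the nearest to both. The summit windows chr3L:20687553-20687653 and chr3L:20700740-20700840 are shown because both are AT-rich, with A/T runs in capitals:
kni downstream: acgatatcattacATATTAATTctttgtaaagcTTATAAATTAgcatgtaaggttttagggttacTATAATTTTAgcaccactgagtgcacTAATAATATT
kni upstream: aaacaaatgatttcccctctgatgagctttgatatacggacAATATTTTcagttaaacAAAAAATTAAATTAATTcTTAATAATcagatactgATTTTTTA
Each window holds 4 A/T runs, and GC content was 26.7% and 23.8%, against 48.5% and 46.0% beside the summits.

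The remaining trunk gap genes had no summit in the main set, and their ranked summits were weak. For hb, a zinc finger gene of the anterior embryo at chr3R:8690980-8697822 (FBgn0001180), the strongest ranked summit lay 8047 bp from an hb TSS with a signal of 63.3 and an IDR of 0.0838. The TSS nearest to that summit was that of CG8112, at 7064 bp. The highest hb values in the replicates' lists were 33.1, 12.5 and 39.1, none past the threshold, and no ranked summit fell within 500 bp of either hb TSS. For gt, a basic leucine zipper gene at chrX:2427113-2428967 (FBgn0001150), no summit of any kind was ranked in its window behind the main set or in replicates 2 and 3. Replicate 1 listed 1 gt summit, 9251 bp from the TSS, with a signal of 44.7 and an IDR of 0.356. A window with no ranked summit of any class was found at 1 of the 10 genes, gt, and at 20.5% of all genes.

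Kr, the zinc finger gap gene of the central embryo, lies at chr2R:25226611-25231394 (FBgn0001325). Its strongest ranked summit behind the main set, in the interval chr2R:25239382-25239991, was 13076 bp downstream of the TSS with a signal of 91.1 and an IDR of 0.0495. That summit lay in an intron of CG9380, and the nearest TSS was that of CG30429, at 6780 bp. Replicate 3 listed a Kr promoter summit 86 bp from the TSS, with a signal of 48.0 and an IDR of 0.0445, replicate 1 listed one 264 bp from the TSS with a signal of 11.2, and replicate 2 listed none. The Kr promoter was thus ranked in 2 replicates at low signal and passed the threshold in neither.

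The terminal gap genes tll and hkb, which act at the ends of the embryo, also had no main summit. At tll, a nuclear receptor gene at chr3R:30852315-30854400 (FBgn0003720), the strongest ranked summit lay 8373 bp from the TSS with a signal of 96.1 and an IDR of 0.434. The TSS nearest to that summit was that of Cpr100A, at 6833 bp. The highest tll values in the replicates' lists were 43.4, 32.8 and 34.6, none past the threshold. At hkb, a zinc finger gene at chr3R:4345015-4346646 (FBgn0261434), the ranked list behind the main set held no summit of its own and 2 at promoters of other genes. In the replicates' lists the strongest hkb summits had signals of 19.7 in replicate 1 and 11.5 in replicate 3, and replicate 2 listed none.

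Outside the 10 kb limit, the main summit closest to tll was 11185 bp from the gene, near Cpr100A, with a signal of 135.5. The closest to hb was 14249 bp away at the promoter of Unc50, with a signal of 448.7. For gt it was 18969 bp away at the promoter of z, for Kr 21932 bp away at that of CG30428, and for hkb 32298 bp away at that of Sfxn1-3. Of these 5 summits, 4 lay at the promoters of other genes, and that near tll was intergenic.

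**Figure D3:**
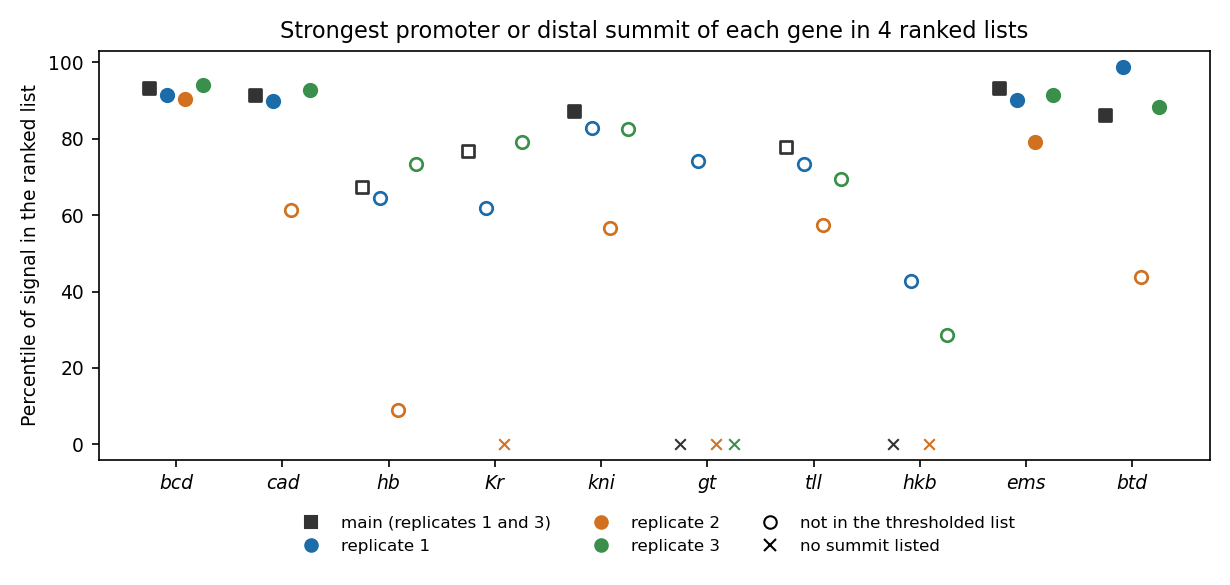
Signal of the strongest promoter or distal summit of each gene, as a percentile of all peaks in the ranked list behind the main set (squares) and in the ranked list of each replicate (circles). Filled symbols passed the threshold, open symbols did not, and crosses at 0 mark genes with no such summit listed. No symbol is filled for hb, Kr, gt, tll or hkb, and the symbols of bcd and ems are filled in every list. For ems they mark the downstream site in every list. For bcd they mark the upstream site in replicate 1 and the promoter in the other lists.

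Among the head gap genes, ems encodes a homeodomain protein and lies on the plus strand at chr3R:13901853-13904620 (FBgn0000576). The peak chr3R:13907745-13907996 had its summit at base 13907874, 3254 bp beyond the 3' end of the gene. It was the only one of the 13 peaks at these genes whose summit lay in a thresholded peak of all 3 replicates. By a reciprocal overlap of at least 50% of each interval, it was found in 1 replicate. By that measure the upstream peaks of bcd, cad and ems were found in 2. The signal of the downstream ems peak was 257.9, rank 2997, with an IDR of 0.000241. The replicates gave 91.8, 61.9 and 91.4, which is 0.869, 0.717 and 0.831 times the median of that replicate's thresholded list, or 0.806 ± 0.079 (SD, n = 3). This signal was below the list median in each replicate, and all 3 passed the threshold. The whole interval is shown because its summit lay in a thresholded peak of every replicate, on the plus strand, with A/T runs in capitals:
ems downstream: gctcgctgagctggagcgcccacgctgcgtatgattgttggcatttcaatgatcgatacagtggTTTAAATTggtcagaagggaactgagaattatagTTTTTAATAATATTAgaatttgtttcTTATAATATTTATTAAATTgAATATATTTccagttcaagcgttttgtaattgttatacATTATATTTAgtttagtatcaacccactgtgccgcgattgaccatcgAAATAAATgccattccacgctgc
It holds 6 A/T runs, the longest of 19 bases close to the summit, where GC content was 19.8%, the lowest of the 13 peaks, against 46.5% beside it.

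Upstream of ems, 2 overlapping intervals were listed. The interval chr3R:13892772-13893381, 8776 bp upstream, had a signal of 232.4, rank 3466, with 89.3, 53.2 and 84.8 in the replicates, past the threshold in replicates 1 and 3. The interval chr3R:13892988-13893597, 8560 bp upstream, had a signal of 28.4, rank 7667, and it met the same peaks of replicates 1 and 3. They are shown to compare a stronger and a weaker summit of what the replicates listed as a single peak, as summit windows with A/T runs in capitals:
ems upstream, stronger summit: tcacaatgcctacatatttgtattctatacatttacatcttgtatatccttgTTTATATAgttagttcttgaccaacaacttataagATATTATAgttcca
ems upstream, weaker summit: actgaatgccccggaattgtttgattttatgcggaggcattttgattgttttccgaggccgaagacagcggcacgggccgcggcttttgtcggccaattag
The stronger summit had 2 A/T runs and 26.7% GC, and the weaker had none and 52.5% GC.

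The other head gap gene, btd, encodes a zinc finger protein of the Sp family and lies on the plus strand at chrX:9694186-9697558 (FBgn0000233). Its strongest peak, chrX:9684454-9685063, lay 9427 bp upstream in an intron of nej, which encodes the coactivator CBP, 908 bp from the TSS of nej. The signal was 151.2, rank 5758, and the replicates gave 64.3 in replicate 1, no listed peak in replicate 2 and 74.4 in replicate 3, which alone passed the threshold. An overlapping interval, chrX:9684653-9685262, with its summit 709 bp from the TSS of nej, had a signal of 101.7 and met the same replicate peaks. The third peak, chrX:9689026-9689635, was intergenic, 4855 bp upstream of btd and 1142 bp from the TSS of lncRNA:CR42657, with a signal of 130.6 and 43.8, 24.4 and 54.4 in the replicates, none past the threshold. Its summit window, chrX:9689281-9689381, is shown for the longest A/T run at any of the 13 summits, 24 bases:
btd upstream: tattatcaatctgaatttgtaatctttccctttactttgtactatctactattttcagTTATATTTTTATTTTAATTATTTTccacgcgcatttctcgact

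The btd window held 3 stronger peaks at other promoters. That of nej had a signal of 340.4, that of lncRNA:CR42657 had 636.8, and that of lncRNA:CR44016, 1652 bp upstream of btd, had 204.1. The lncRNA:CR42657 summit lay 476 bp from its TSS, just inside the 500 bp limit. In the list of replicate 1 the summit of that peak was placed farther away, so there it counted as a distal btd summit with a signal of 235.6. The high btd value of replicate 1 in the plot of strongest ranked summits is this peak.

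The order of the peaks was compared within each replicate, over the 9 peaks listed in all 3. In 20 of the 36 pairs the peak with the higher main-set signal was also the higher in every replicate, and in 16 the replicates differed in order. Among the 5 highest, the upstream bcd peak exceeded the upstream cad peak in every replicate, by 11.7, 18.7 and 13.9, and the downstream ems peak exceeded the stronger upstream ems peak in every replicate, by 2.41, 8.77 and 6.52. The other pairs among these 5 changed order between replicates. The bcd promoter, first by main-set signal, was below all other peaks of the 9 except the intergenic btd peak in replicate 1 and above all of them in replicates 2 and 3. A peak counted as found in a replicate when its summit lay in a thresholded peak of that replicate. Of the 13 peaks, 1 was found in 3 thresholded replicate lists, 5 in 2, 2 in 1 and 5 in none. The overlapping intervals of the ems and btd pairs were counted separately in these numbers. Found in none were 38.5% of these peaks, against 18.95% of all main peaks, and found in 3 were 7.69%, against 36.9% of all main peaks. By a reciprocal overlap of at least 50%, 0 of the 13 were found in 3 lists and 5 in none. Over all 7804 main peaks, these numbers were 1687 and 2204. The replicate lists and the main set share their alignments, so these shares describe how the lists overlap.

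**Figure D4:**
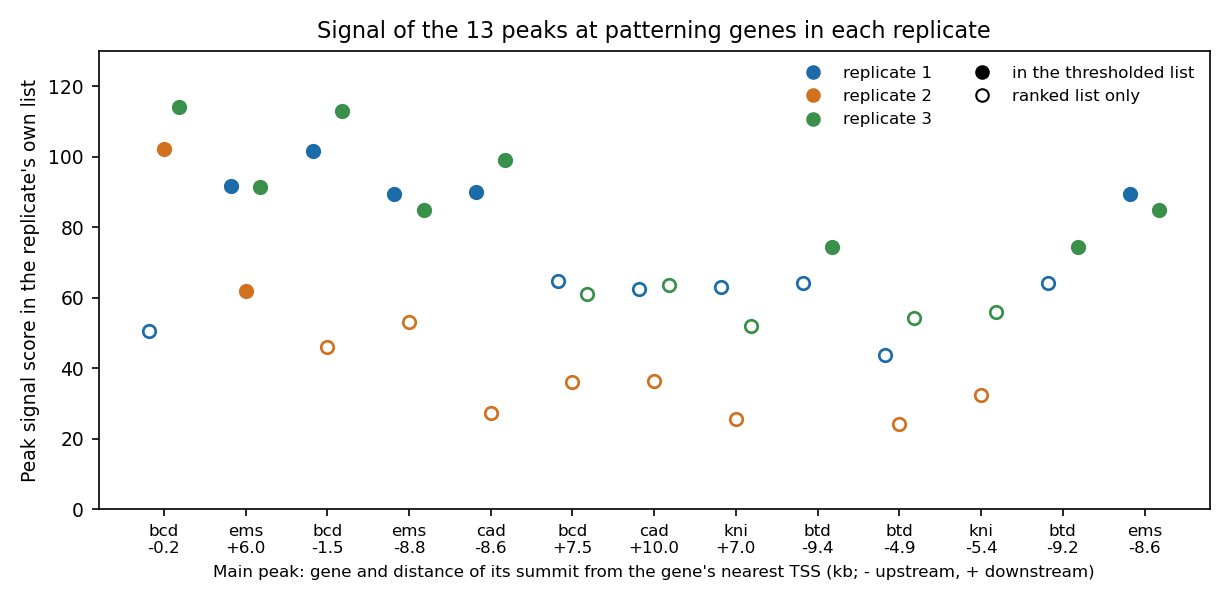
Signal score in each replicate's own list at the 13 main peaks of the patterning genes, ordered by main-set signal, with the distance of the summit from the gene's nearest TSS in kb below each gene. Filled circles passed the threshold of that replicate and open circles did not, and the second btd and ems intervals of the overlapping pairs repeat the same replicate peaks. Circles are to be read against others of the same colour, since the scale may differ between replicates, and only the ems peak at +6.0 kb is filled in all 3.

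Within the main set these peaks were of middling to low signal. The median signal of the 13 peaks was 168.6, with a range of 28.4 to 259.6, against a median of 213.7 over all main peaks. As a percentile of the main set, the 13 peaks had a median of 33.9 and reached 62.0 at most. The 12 distal peaks had a median signal of 164.7, against 206.5 over all 4201 distal main peaks. The interval was 610 bp wide, the commonest width, in 11 of the 13 peaks, against 52.3% of all main peaks. In 99.95% of main peaks of that width the summit was the middle base, so those summits carry the position of a fixed-width interval. The narrower intervals, 273 bp at the bcd promoter and 252 bp downstream of ems, were also the strongest of the 13, and over all main peaks the narrower ones had a median signal of 330.5, against 155.9 for those of 610 bp.

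Some peaks in the windows of these genes lay just inside or just outside the threshold. Inside were the overlapping btd interval with an IDR of 0.00898, the intergenic btd peak with 0.0076 and the upstream kni peak with 0.00606. Just outside, the promoter of CG1103 in the hkb window, which is not counted for hkb, had an IDR of 0.011 with a signal of 127.5. A second downstream kni summit had an IDR of 0.0143 with a signal of 107.8. In the ranked list behind the main set, 3 of the 10 genes had a promoter summit, against 41.6% of all genes. Besides bcd these were ems, at 220 bp with a signal of 48.6, and btd, at 168 bp with a signal of 33.6. The windows of the 10 genes held a median of 8 ranked summits (range 0 to 19), against 7 over all genes.

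The sequence at the summits was poor in G and C. Within 50 bp of the 13 summits GC content was 33.4% ± 12.5, and 45.2% ± 6.30 in the windows beside them (SD over 13 peaks). Over all main peaks the means were 32.4% and 42.8%. The centre was lower than the flank at 10 of the 13 peaks, against 78.0% of all main peaks, and an A/T run of 8 or more bases lay within 50 bp of 11 of the 13, against 79.4%. The exceptions to the lower centre were the bcd promoter and the weaker intervals of the ems and btd overlapping pairs. In these measures the peaks at the patterning genes were close to the main set as a whole.

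**Figure D5:**
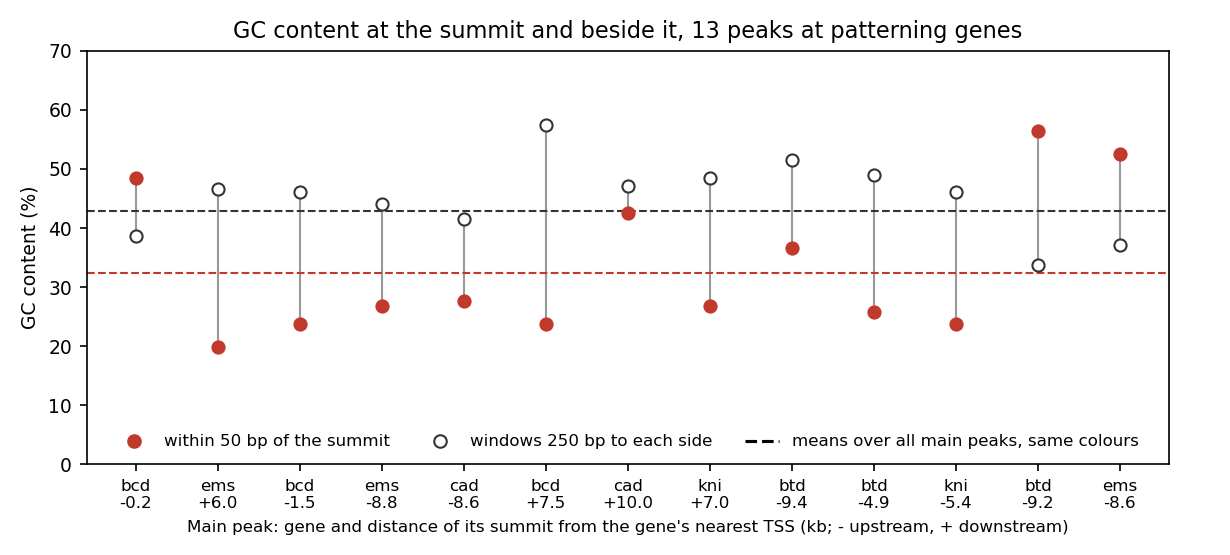
GC content within 50 bp of the summit (red) and in windows 250 bp to each side (open) for the 13 peaks, ordered by main-set signal, with the means over all main peaks as dashed lines at 32.4% (red) and 42.8% (black). The red points lie below the open ones except at the bcd promoter, the second btd interval and the second ems interval.

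Short words bound by known embryonic factors were counted on both strands within 150 bp of each summit, in windows of 301 bp. CAGGTAG, the word of Zelda, was in 0 of the 13 windows and 1.205% of all main peaks. TAATCC, the word of Bicoid, was in 0 of 13 and 8.88%. TTTATG, the word of Caudal, was in 7 of 13 and 33.3%, and all its letters but the last are A or T. GAGAG, the word of GAGA factor, was in 5 of 13 and 29.97%, and TATCGATA, the word of the DNA replication-related element, in 0 of 13 and 5.42%. These are matches of letters in a window and do not show binding of the named factors.

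The other anterior-posterior genes were counted in the same way from 3 lists, of which 34 of 36 names matched the annotation, and nos and h were not analysed here. The shares over all genes that stand beside their counts are 22.3% for promoter summits and 34.8% for distal ones. Of these 34 genes, 9 had a promoter summit in the main set and 23 a distal one. In the list of maternal and terminal genes 6 of 14 had a promoter summit, against 22.3% of all genes, and 10 of 14 had a distal one, against 34.8%. The 6 were gro, which encodes a corepressor, with a signal of 704.7, cic, a repressor of terminal genes, with 581.0, pum, a translational repressor, with 356.7, brat, which acts with pum, with 263.3, exu, needed to place bcd messenger RNA, with 176.7, and swa, also needed to place it, with 13.4. The promoter peak of swa was found in 0 replicate lists and that of exu in 1. Those of gro, pum and brat were found in 3 and that of cic in 2. In the list of head, trunk and terminal genes 3 of 15 had a promoter summit, against 22.3% of all genes, and 12 of 15 had a distal one, against 34.8%. The promoter summits were at grh with 319.9, cnc with 317.8 and fkh with 203.4. In the pair-rule list 0 of 5 had a promoter summit, against 22.3% of all genes, and 1 of 5, odd, had a distal one, against 34.8%. The odd peak had a signal of 180.7 and passed the threshold in no replicate list.

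The strongest distal peaks of those lists exceeded every peak at the 10 genes, which reached 259.6. They were 728.7 in an intron of brat, 701.2 in an intron of grh, and 693.5 in intergenic sequence shared by the windows of slp1 and slp2, 4332 bp from the TSS of slp2, each past the threshold in all 3 replicates. The brat gene is 45943 bp long and grh 41689 bp, against a median of 3211 bp for the 10 genes, so their windows were wider. The counts of those lists are descriptions of genes of unequal length and were not tested against the 10 genes.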

How the data were processed

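Peak lists from 3 biological replicates of 1 group were used, and the reads were not analysed here. Per the file listings of the samples, the authors mapped reads to dm6 and called each list with a control, which was not analysed here. No source used here names the aligner or the peak caller. The signal, a score that the authors deposited, has no stated scale, and IDR is deposited by the authors as a −log10 value. Each of the 14 lists, 7 ranked and 7 thresholded, was reduced to 1 peak per interval, taking summit and signal from the line with the highest signal. The conservative list was identified as the list comparing replicates 1 and 3, because 78.7% and 90.7% of the lines of its inputs matched these replicates' lists and none matched another. Of the lines with an IDR of 0.01 or less in its ranked list, 170 were not in the thresholded list, and 0 of them lay near the 10 genes.

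Genes and 23998 TSSs came from Ensembl release 115 without transposable elements, and all 10 genes have the same position in RefSeq's annotation. Sequences are from RefSeq's release 6 assembly. Coordinates are dm6, counted from 1. Computation used Python 3.11.15, numpy 2.4.6 and pandas 2.3.3. The assignment of summits was tested on simulated data. All 10 genes are named, and where the TSS nearest to a main summit was that of another gene, that gene is named too. From the other lists, those with a promoter summit and the 3 with the strongest distal peak are named. The genes, lists and words were chosen with earlier results of these data known. No test was made, since there is 1 group. Alternatives covered the IDR threshold, the lists, the replicate left out, the distance limits, the lines and the gene universe.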

Additional observations from a re-analysis of the deposited data

How the results depend on the processing

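The number of genes with a promoter summit (1) was 0 at an IDR of 0.001 or less, 3 in the ranked list and 0 with peaks found in every replicate, and 1 with each replicate left out in turn. The number with a distal summit (5) was 3, 8 and 1 under those settings, 3 when a summit counted only for the nearest coding TSS, and 2 to 5 without a replicate, with 2 in the lists without replicate 1 and without replicate 3. Distal summits (12) numbered 5, 71 and 1 under the same settings, 6 for the nearest coding TSS, 6 with a 5 kb limit, 21 with a 20 kb limit, and 4 to 12 without a replicate, with 4 when replicate 1 or replicate 3 was left out.

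Over all genes the promoter share (22.3%) was 16.1%, 41.6% and 10.5% under those settings, 16.9% and 26.5% with limits of 250 and 1000 bp, 26.4% in protein-coding genes, 31.5% in those of the patterning genes' length range, a setting chosen after seeing the data, and 13.5% to 22.3% without a replicate. The distal share (34.8%) was 24.8%, 65.8% and 17.9%, then 44.5% and 26.9% with limits of 250 and 1000 bp, 22.4% and 52.9% with 5 and 20 kb, 9.93% for the nearest coding TSS, and 23.3% to 34.8% without a replicate. The median percentile of the 13 peaks (33.9) was 25.9, 44.1 and 15.05, then 44.7 with a 250 bp limit, 55.6 for the nearest coding TSS, and 30.4 to 43.7 without a replicate. The cause was not tested. The pooled list and counting every line moved none of these results beyond the spread used. No paired analysis was possible because there is 1 group. The list without replicate 2 is the main set itself, and every series-level list drew on all replicates' alignments. Depth is unknown, so a gene without a peak was not detected here, not shown to be unbound.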
